A study of Mus musculus with 12 samples.

Results

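The 997 peaks described here lay on 2 families of endogenous retroviral repeats, ERV1 and ERVL, in a master list of 84243 accessible regions of mouse blood cells. Peaks were taken where the detailed annotation of the list named an LTR repeat of the class ERV1 or ERVL, and the ERVL-MaLR repeats, a separate group, were left out. ERV1 held 400 peaks (0.475% of the list, 95% Wilson interval 0.431 to 0.524) and ERVL held 597 peaks (0.709%, 0.654 to 0.768), so that both families made up 1.18% of the list (1.11 to 1.26). The annotation carried a question mark, for an uncertain assignment, in 1 ERV1 peak and in 15 ERVL peaks.

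Chromatin accessibility was measured by ATAC-seq, in which the Tn5 transposase cuts DNA where it is open, in 6 cell types of wild-type C57BL/6 mice aged 8 to 12 weeks. HSCs, MkPs (megakaryocyte progenitors), EPs (erythroid progenitors), GMs (granulocytes and macrophages) and B cells were sorted from bone marrow and T cells from thymus, with 2 replicates each and 12 samples in all. The list was pooled over all samples and gave no value per sample, so a peak could not be assigned to a cell type, the depth was unknown, and replicate error could not be given. Intervals given below cover counting error only and treat peaks as independent, although copies of a repeat share ancestry.

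Endogenous retroviruses are remnants of retroviruses that entered the germ line. A complete provirus has internal sequence with the viral genes, between a pair of identical long terminal repeats (LTRs) that hold the viral promoter and enhancer, and recombination between the LTRs often leaves a solitary LTR. ERV1 elements are related to gammaretroviruses such as murine leukaemia virus, and ERVL elements are an older lineage of placental mammals whose MERVL members are known for expression in early mouse embryos.

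Sequences of single copies are shown first, since the repeats are best known by them. For the 3 largest subfamilies of each family, the following lines give the central 200 bases of the peak that aligned best with the other peaks of its subfamily, although few pairs align in any of these subfamilies but RLTR14, from RefSeq GRCm38.p6, the assembly of mm10, on the plus strand. Capitals mark matches, on either strand, to any of the 17 motifs searched below.
RLTR14, ERV1, chr1:35653422-35653621: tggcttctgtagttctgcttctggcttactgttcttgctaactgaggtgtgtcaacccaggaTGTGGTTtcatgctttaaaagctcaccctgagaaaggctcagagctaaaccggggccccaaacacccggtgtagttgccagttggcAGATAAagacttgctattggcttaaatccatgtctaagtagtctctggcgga
MLTR14, ERV1, chr9:61746754-61746953: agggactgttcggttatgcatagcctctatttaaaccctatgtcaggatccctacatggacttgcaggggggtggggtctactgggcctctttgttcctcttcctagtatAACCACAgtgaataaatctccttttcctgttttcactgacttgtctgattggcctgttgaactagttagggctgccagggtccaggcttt
RMER5, ERV1, chr4:40914377-40914576: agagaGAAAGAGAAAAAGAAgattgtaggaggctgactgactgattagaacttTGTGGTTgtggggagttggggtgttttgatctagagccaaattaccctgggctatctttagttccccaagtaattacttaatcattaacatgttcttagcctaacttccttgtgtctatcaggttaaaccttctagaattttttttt
RMER15, ERVL, chr7:90046317-90046516: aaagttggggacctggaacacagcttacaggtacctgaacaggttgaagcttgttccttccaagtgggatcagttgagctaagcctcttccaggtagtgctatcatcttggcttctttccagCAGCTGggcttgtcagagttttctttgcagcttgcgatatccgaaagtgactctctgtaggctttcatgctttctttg
LTR41, ERVL, chr17:36308916-36309115: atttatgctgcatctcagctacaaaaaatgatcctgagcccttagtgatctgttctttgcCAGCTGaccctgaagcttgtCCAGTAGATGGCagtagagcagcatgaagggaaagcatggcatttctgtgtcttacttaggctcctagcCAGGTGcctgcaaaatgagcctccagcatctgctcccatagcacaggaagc
RMER15-int, ERVL, chr15:5126542-5126741: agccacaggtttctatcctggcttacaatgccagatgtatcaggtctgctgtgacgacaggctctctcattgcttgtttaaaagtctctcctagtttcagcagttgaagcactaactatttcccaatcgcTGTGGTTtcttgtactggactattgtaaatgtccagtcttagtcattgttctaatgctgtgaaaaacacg
The RLTR14 copy lay in intergenic sequence far from its nearest gene, Hs6st1, and held a RUNX and a GATA match. The MLTR14 copy, 167656 bp from its nearest gene Rplp1, held a RUNX match on the minus strand, and the RMER5 copy, near Spink4, held a RUNX match beside overlapping IRF matches. The RMER15 copy lay in an intron of E230029C05Rik, and the LTR41 copy, one of a group of near copies in the MHC region beside H2-M10.1, held a CTCF match and both E-box forms and does not stand for the whole subfamily. The RMER15-int copy, internal proviral sequence near Snord72, held a RUNX match. A match in a single copy does not describe its subfamily. RUNX matches were in 56.8% of RLTR14, 24% of RMER5, 13.9% of RMER15-int and 11.1% of MLTR14 peaks, beside 16.1% of all listed peaks.

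Short stretches around a motif show how far copies of a subfamily agree in letters. In RLTR30D2_MM, an ERV1 LTR with 13 peaks, a RUNX match stood at the same alignment column in 12 of 13 peaks. RUNX factors are transcription factors of stem cells, megakaryocytes and T cells. The matches and 10 bases on each side are shown for 10 of those peaks, with the nearest gene and the match in capitals. Each was written 5′ to 3′ on the strand given, so that the match reads as TGTGGTT.
RLTR30D2_MM near Ddi2, chr4:141713801-141713827 (-): tccccattttTGTGGTTatctccaggc
RLTR30D2_MM near Kif20b, chr19:34905619-34905645 (+): tccccatttcTGTGGTTatcccctggc
RLTR30D2_MM near Prdm2, chr4:143240048-143240074 (+): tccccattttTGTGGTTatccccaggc
RLTR30D2_MM near Mir193b, chr16:13420041-13420067 (+): tccccattttTGTGGTTatccccaggg
RLTR30D2_MM near 2210414B05Rik, chr4:3626897-3626923 (+): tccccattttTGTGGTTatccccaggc
RLTR30D2_MM near Cpsf6, chr10:117409604-117409630 (+): tccctacttcTGTGGTTatccccaggc
RLTR30D2_MM near 4930598F16Rik, chr1:95749095-95749121 (-): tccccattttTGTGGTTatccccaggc
RLTR30D2_MM near Irak3, chr10:120168375-120168401 (+): tctccatttcTGTGGTTatccccaggc
RLTR30D2_MM near Ptpn11, chr5:121124413-121124439 (+): ttccccatttTGTGGTTatgcccaggc
RLTR30D2_MM near Mctp1, chr13:76591874-76591900 (+): tccccattttTGTGGTTatccccagga
The flanks were nearly the same letters in every copy, and the genes beside them included Prdm2, a histone methyltransferase, Irak3, an inhibitor of Toll-like receptor signalling, and Ptpn11, the phosphatase SHP-2. In RLTR14, the largest ERV1 subfamily, 21 of the 25 peaks with a RUNX match had it at a single column. The 8 such peaks with the smallest distances to a TSS are shown, among them those upstream of Pax5, the transcription factor of B cell identity, and of Ikbkb, a kinase that activates NF-kB.
RLTR14 near Unkl, chr17:25224726-25224752 (-): caactcaggaTGTGGTTtttgtgctta
RLTR14 near Ublcp1, chr11:44475704-44475730 (+): cgacccaggaTGTGGTTgctatactta
RLTR14 near Mknk2, chr10:80682111-80682137 (+): cacctcaggaTGTGGTTttgtgcttaa
RLTR14 near Mir760, chr3:122287410-122287436 (-): caacccaggaTGTGGTTtttatgctta
RLTR14 near Gad1, chr2:70551615-70551641 (+): caacccaggaTGTGGTTtttgtgctta
RLTR14 near Zfp141, chr7:42491062-42491088 (+): caacaaaggaTGTGGTTttgtgcttaa
RLTR14 near Ikbkb, chr8:22724261-22724287 (-): caacccaggaTGTGGTTttatgcttaa
RLTR14 near Pax5, chr4:44729190-44729216 (-): tctaccaggaTGTGGTTtttgtacata
RLTR14_RN, a related name with 17 peaks, had a GATA match at a single column in 10 of 15 peaks with the motif. GATA factors act in stem cells and in the erythroid and megakaryocyte lineages. Of these, the 5 nearest to a TSS are shown.
RLTR14_RN near Trnp1, chr4:133506783-133506808 (+): acagaagctcAGATAAgcagttagct
RLTR14_RN near Cldn34a, chrX:152545967-152545992 (+): acagaaacttAGATAAgcagttattt
RLTR14_RN near Tsc22d3, chrX:140625421-140625446 (+): acaggaggtaAGATAAgcagttggct
RLTR14_RN near Dab2ip, chr2:35526771-35526796 (+): acagaagctaAGATAAgtggttagct
RLTR14_RN near L3mbtl3, chr10:26325431-26325456 (-): acagatgctaAGATAAgcagttagat
In the ERVL subfamily RLTR28, 8 of 11 peaks with a PU.1 match had it at a single column. PU.1 is an ETS factor of myeloid and B cells. Of these, 6 are shown, among them the copy upstream of Gdf15, a secreted factor of the TGF-beta family.
RLTR28 near Ceacam18, chr7:43642720-43642747 (+): gcctcaggaaGAGGAAGTggccaaataa
RLTR28 near Atp6v0a1, chr11:100999859-100999886 (+): gcctcagaagGAGGAAGTggccagcttt
RLTR28 near Gdf15, chr8:70644092-70644119 (+): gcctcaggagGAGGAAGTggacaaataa
RLTR28 near Peli2, chr14:48157479-48157506 (+): atctcaggaaGAGGAAGTgaccaaataa
RLTR28 near Haao, chr17:83790258-83790285 (+): gcctaaggagGAGGAAGTggccaagtaa
RLTR28 near Syt17, chr7:118346602-118346629 (+): gcctcagaaaGAGGAAGTggttaaataa
In LTR41, an ERVL LTR with 41 peaks, all 13 matches to the CTCF pattern fell at a single column, although the letters around them differed more between copies. This pair of repeat and motif was chosen after its values were seen, and an alignment can be drawn together by the motif itself. CTCF is the zinc finger protein at chromatin loop boundaries. The 6 shown are those nearest to a TSS.
LTR41 near 4921511I17Rik, chr12:12396413-12396444 (-): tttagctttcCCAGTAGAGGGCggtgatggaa
LTR41 near Gramd1b, chr9:40350838-40350869 (+): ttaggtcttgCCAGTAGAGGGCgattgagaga
LTR41 near Ifi44l, chr3:151771291-151771322 (-): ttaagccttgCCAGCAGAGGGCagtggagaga
LTR41 near Fbxo17, chr7:28726833-28726864 (-): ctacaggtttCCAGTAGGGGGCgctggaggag
LTR41 near Trim26, chr17:36826220-36826251 (-): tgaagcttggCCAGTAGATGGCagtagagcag
LTR41 near Bloc1s6, chr2:122725773-122725804 (+): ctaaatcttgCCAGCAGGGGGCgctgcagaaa

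The peaks were spread over many subfamilies, and a few names held most of the larger groups. ERV1 peaks carried 85 subfamily names, of which 28 had a single peak and 11 had 10 or more, and the 5 largest held 127 peaks (31.8%). RLTR14 was the largest with 44 peaks (11%, 8.3 to 14.4), followed by MLTR14 with 27, RMER5 with 25, RLTR14_RN with 17 and RMER2 with 14. ERVL peaks carried 90 names, of which 21 had a single peak and 15 had 10 or more, and the 5 largest held 210 peaks (35.2%). RMER15 led with 79 peaks (13.2%, 10.7 to 16.2), followed by LTR41 with 41, RMER15-int with 36, MT2A, an LTR related to those of MERVL, with 30, and LTR41B with 24. Internal sequence, marked by "-int" in the name, was the annotated repeat of 67 ERV1 peaks (16.8%, 13.4 to 20.7) and of 87 ERVL peaks (14.6%, 12 to 17.6), and the other 333 and 510 peaks lay on LTRs. Both families had peaks on 20 chromosomes.

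**Figure D1:**
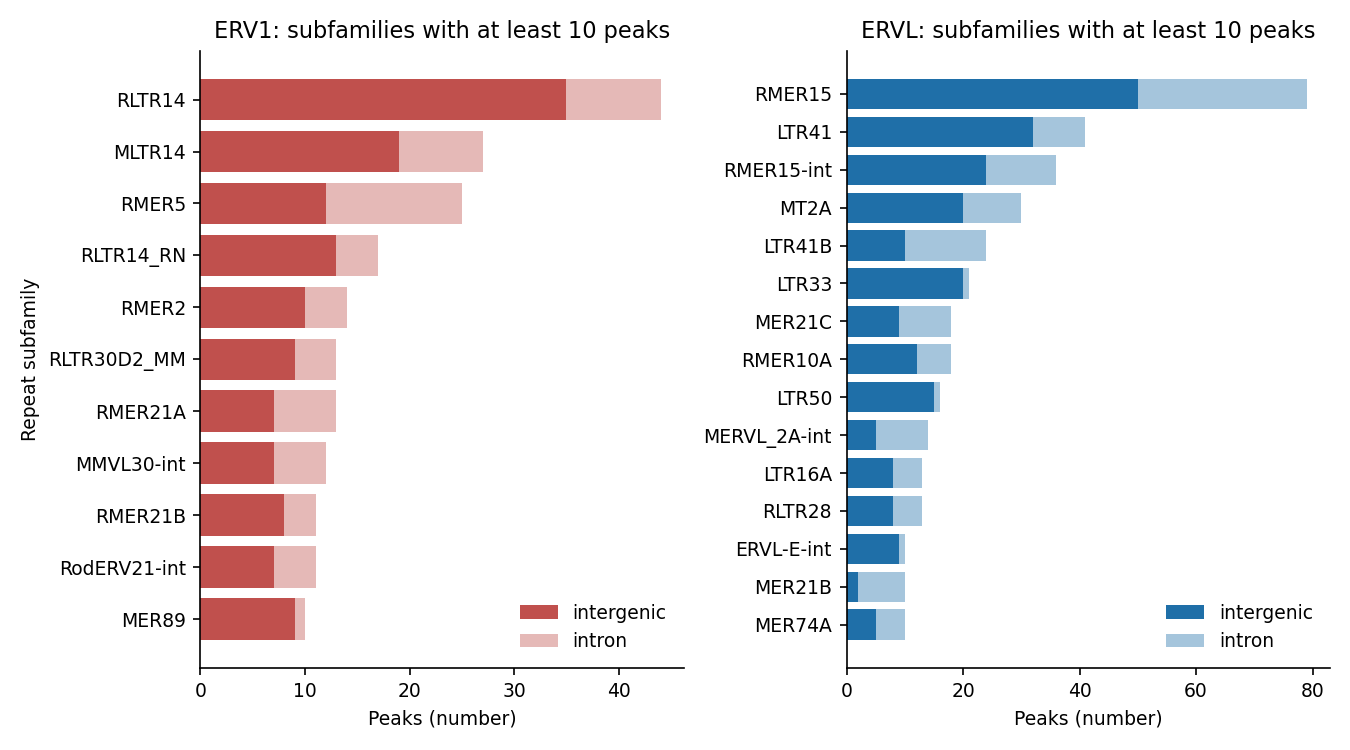
Number of peaks (x axis) for each subfamily with at least 10 peaks (y axis) in ERV1 (left, red) and ERVL (right, blue), with intergenic peaks in the darker and intron peaks in the paler shade. RLTR14 with 44 and RMER15 with 79 peaks are the longest bars, and the LTR33 bar is nearly all intergenic.

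Subfamilies differed in where their peaks lay. Of the 44 RLTR14 peaks 35 were intergenic, and of the 21 LTR33 peaks 20 were, whereas RMER5 divided into 12 intergenic and 13 intron peaks and LTR41B into 10 and 14. LTR50 had 15 of 16 peaks in intergenic sequence, and MER21B had 2 of 10. Among the groups of 10 or more, the median distance to the TSS ran from 13745 bp in RLTR28 to 45954 bp in LTR50 and 103806 bp in MER89, and these medians rest on small numbers.

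ERV1 peaks lay in intergenic sequence more often than ERVL peaks, and both more often than peaks without an LTR label of these families. HOMER gave repeat labels only to peaks in introns or intergenic sequence (0 labels elsewhere), so members were set beside the 65638 other intron and intergenic peaks, which include the 4552 on other LTR repeats. Intergenic peaks were 287 of 400 in ERV1 (71.8%, 67.1 to 75.9), 379 of 597 in ERVL (63.5%, 59.5 to 67.2) and 47.3% of the others. The difference from the others was 24.5 points in ERV1 (Newcombe interval 19.9 to 28.7) and 16.2 points in ERVL (12.3 to 20), and ERV1 exceeded ERVL by 8.27 points (2.32 to 14). Against the peaks on other LTR repeats alone, of which 60.4% were intergenic, the ERV1 difference was 11.4 points (6.54 to 15.8), and that of ERVL was 3.09 points with an interval that includes 0 (-1.09 to 7.12). By curated RefSeq transcripts 70.8% of ERV1 and 62.8% of ERVL peaks were intergenic.

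The distance to the nearest TSS differed little between the groups. Its median was 22776 bp in ERV1 (quartiles 10450 and 55842) and 24572 bp in ERVL (10961 and 58031), beside 23728 bp in the other intron and intergenic peaks and 27252 bp in the other LTR peaks. Peaks within 10 kb of a TSS made up 24.8% of ERV1 and 22.6% of ERVL, and 27.2% of the others, a difference of -2.47 points in ERV1 (-6.46 to 2) and -4.61 points in ERVL (-7.8 to -1.07). Against other LTR peaks, of which 21.4% were within 10 kb, the signs turned, to 3.37 points in ERV1 (-0.782 to 7.98) and 1.24 points in ERVL (-2.16 to 4.95). Peaks over 100 kb away made up 13% and 13.9%, beside 13.7% of the others. ERV1 peaks were upstream of the nearest TSS in 55.2% and ERVL peaks in 48.4%, beside 41.4% of the others. Within intergenic peaks the upstream shares were 67.6% in ERV1, 64.6% in ERVL and 65.8% in the others, and within intron peaks 23.9%, 20.2% and 19.6%. The X chromosome held 12 ERV1 peaks (3%) and 27 ERVL peaks (4.52%), beside 1.98% of the others, and the difference in ERVL was 2.55 points (1.15 to 4.53).

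**Figure D2:**
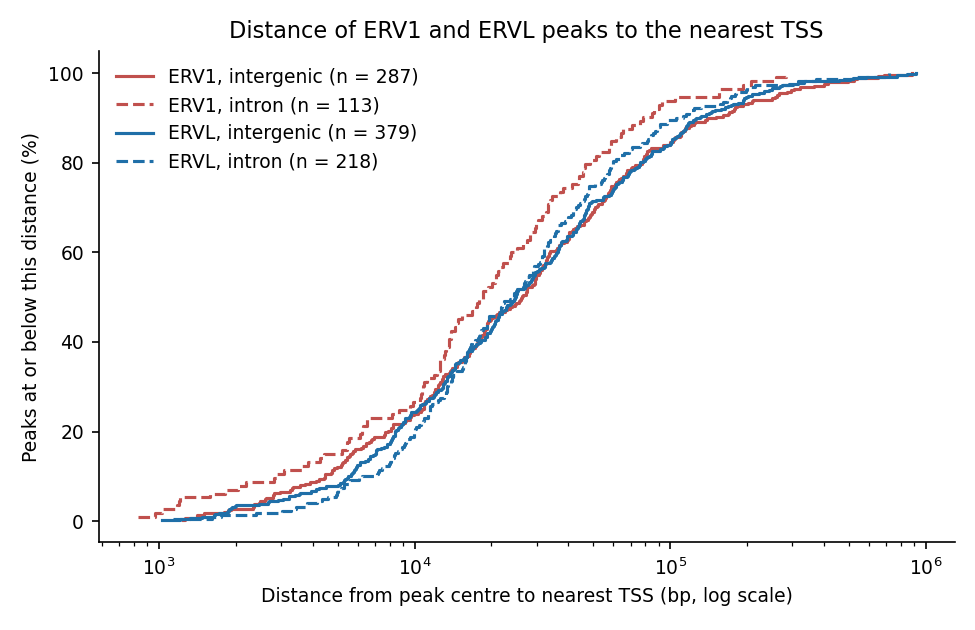
Cumulative share of peaks (y axis, %) by distance to the nearest TSS (x axis, bp from the centre, log scale) for ERV1 (red) and ERVL (blue), intergenic peaks as solid and intron peaks as dashed lines. The curves run close together, with family medians of 22776 bp and 24572 bp.

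In base composition the members were close to the other peaks. Median GC was 46.3% in ERV1 and 47.1% in ERVL, beside 47.5% in the other intron and intergenic peaks and 46.5% in other LTR peaks, and the median number of CpG dinucleotides per peak was 5 in both families and 6 in the others. An annotated transcript start of GENCODE lay inside 3 ERV1 peaks (0.75%, 0.255 to 2.18) and 12 ERVL peaks (2.01%, 1.15 to 3.48), beside 4.76% of the others and 2.2% of other LTR peaks, and both differences from other LTR peaks had intervals that include 0. In ERVL these included starts of Slc28a2, a nucleoside transporter, in an MT2A peak, and of Zdhhc18, a palmitoyltransferase, in an LTR50 peak, and in ERV1 the lincRNA Gm48857 in a MuRRS-int peak. These examples were chosen after their values were seen.

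Nearly all listed copies could be told apart from the rest of the genome. Reads that mapped to several places were left out upstream, so copies without unique sequence could hardly enter the list. High shares were thus largely set by that filter. Each peak was searched for stretches of 100 bases that occur once in the genome. All stretches were unique in 379 of 400 ERV1 peaks (94.8%, 92.1 to 96.5) and 586 of 597 ERVL peaks (98.2%, 96.7 to 99), beside 98% of the other intron and intergenic peaks and 95.6% of other LTR peaks. With 50 bases the shares were 70.8% and 88.3%, beside 87.9% of the other intron and intergenic peaks and 73.2% of other LTR peaks. The ERV1 peaks that were not fully unique included names of murine leukaemia virus relatives and VL30 elements, among them 3 MMVL30-int and 2 RLTR6B_Mm peaks, and in ERVL 3 MT2A and 3 RMER15 peaks. Under 50% unique stretches were found in 2 ERV1 peaks (0.5%, 0.137 to 1.8), and in 0 of 597 ERVL peaks, with a Wilson upper bound of 0.639%. The share was 0.0777% in the other intron and intergenic peaks and 0.286% in other LTR peaks. The first, with 42.2% unique stretches, was an MMVL30-int peak at chr2:155027020-155027518 in intron 1 of a (nonagouti), the coat colour gene whose nonagouti allele is known to carry a VL30 insertion. The other, with 47.8%, was an RLTR6B_Mm peak at chr5:113812005-113812503, 11902 bp upstream of Tmem119, a microglial membrane protein.

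Both families differed from other peaks in motif content, mostly by different motifs, with a higher share of NF-kB in both. Consensus strings of 17 blood transcription factors were searched on both strands of every peak, and shares of peaks with at least 1 match were compared with those of the other intron and intergenic peaks. The interval of the difference excluded 0 for 6 higher and 3 lower motifs in ERV1, and for 3 higher and 1 lower motif in ERVL, with no adjustment for the number of motifs. Against other LTR peaks there were 6 higher and 3 lower motifs in ERV1, and 7 higher and 3 lower in ERVL. These were not all the same motifs, as the values for TCF, CTCF and KLF below show. A match is a description of letters, not evidence of binding.

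GATA and RUNX had the largest differences in ERV1. A GATA match (AGATAA) was found in 162 of 400 ERV1 peaks (40.5%, 35.8 to 45.4) and 30.3% of ERVL peaks, beside 27.2% of the other intron and intergenic peaks and 24.1% of all listed peaks. The ERV1 difference was 13.3 points (8.63 to 18.2). A RUNX match (TGTGGTT) was found in 123 ERV1 peaks (30.8%, 26.4 to 35.4) and 17.8% of ERVL peaks, beside 18.2% of the others and 16.1% of all, an ERV1 difference of 12.6 points (8.24 to 17.3). In the 299 ERV1 peaks without the RLTR14 and RLTR30 names the RUNX difference was 2.56 points, with an interval that includes 0 (-1.66 to 7.52). The names left out were picked after the data were seen, so a fall for RUNX was largely given by the choice. For GATA the value without those names was 13 points (7.57 to 18.6). With 1 mismatch allowed the differences were 1.36 points for GATA and 0.594 points for RUNX. So short a string with 1 mismatch can match most peaks by chance, which leaves little room for a difference. These values, and those of other short strings below, therefore decide little.

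The other motifs with a higher share in ERV1 were those of TCF, STAT, MYB and NF-kB. TCF factors (CTTTGAN, 29.2% of all peaks) act downstream of Wnt and in thymocytes. Their motif was in 39.8% of ERV1 peaks, 8.12 points above the others (3.43 to 13) and 0.561 points with 1 mismatch allowed. Against other LTR peaks, of which 36.1% held it, the TCF difference was 3.63 points. STAT factors (TTCNNNGAA, 14.1% of all) relay cytokine signals, and 23% of ERV1 peaks held a match, 7.99 points above the others (4.13 to 12.4), with 3.41 points under 1 mismatch and 4.39 points without the RLTR14 and RLTR30 names (0.3 to 9.26). MYB (AACNGTT, 8.33% of all), a factor of blood progenitors, had matches in 13.2%, a difference of 4.15 points (1.16 to 7.83) that was 0.26 points without the RLTR14 and RLTR30 names (-2.55 to 4.1). The inflammatory NF-kB motif (6.82% of all) was in 15% of ERV1 peaks, 8.71 points above the others (5.54 to 12.5), and without those names the difference was 4.08 points (1.11 to 8.06).

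Lower shares in ERV1 were seen for PU.1, EBF1 and CTCF. PU.1 (GAGGAAGT, 9.39% of all) had matches in 6.75% of ERV1 peaks, a difference of -3.61 points (-5.69 to -0.706). From other LTR peaks, of which 23.1% held it, the difference was -16.4 points. ERVL peaks held it in 10.2% (8.04 to 12.9), which was also below other LTR peaks. EBF1 (CCCNNGGGA, 9.84% of all), a factor of B cell development, had matches in 4%, a difference of -4.81 points (-6.35 to -2.4). The CTCF pattern (5.52% of all) was in 3% of ERV1 peaks, a difference of -3.17 points (-4.46 to -0.99). Against other LTR peaks, of which 1.96% held it, the CTCF difference turned to 1.04 points.

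In ERVL the AP-1, CAGCTG and NF-kB motifs had higher shares. AP-1 (TGANTCA, 15.3% of all), the Fos and Jun dimer, had matches in 143 of 597 ERVL peaks (24%, 20.7 to 27.5), 6.91 points above the others (3.65 to 10.5). Without the RMER15 names, which leaves 482 peaks, this was 3.49 points (0.115 to 7.34), and with 1 mismatch 1.84 points. The E-box CAGCTG (29.8% of all), a site of basic helix-loop-helix factors, was in 36.2% of ERVL peaks, 6.14 points above the others (2.37 to 10.1) but 1.22 points with 1 mismatch, and NF-kB in 9.72%, 3.43 points above (1.29 to 6.07). The IRF motif (GAAANNGAA, 16.3% of all) of interferon regulatory factors was in 14.2%, a difference of -3.28 points (-5.87 to -0.235) that turned to 0.113 points with 1 mismatch and was -0.678 points in the central 200 bp, where the interval included 0.

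For the remaining motifs the interval of the difference from the other intron and intergenic peaks included 0 in both families. These were ETS (CCGGAAG, 6.68% of all), CEBP (TTGCNNAA, 19.3%), the E-box CAGGTG (32.6%), KLF (CCACACCC, 5.88%) and the octamer (ATGCAAAT, 3.37%). The ETS motif was in 2.75% of ERV1 and 3.52% of ERVL peaks, and that of CEBP, a factor of granulocytes, in 21.5% and 21.1%. KLF matches were in 4.5% of ERV1 and 4.52% of ERVL peaks, below the 8.79% of other LTR peaks.

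**Figure D3:**
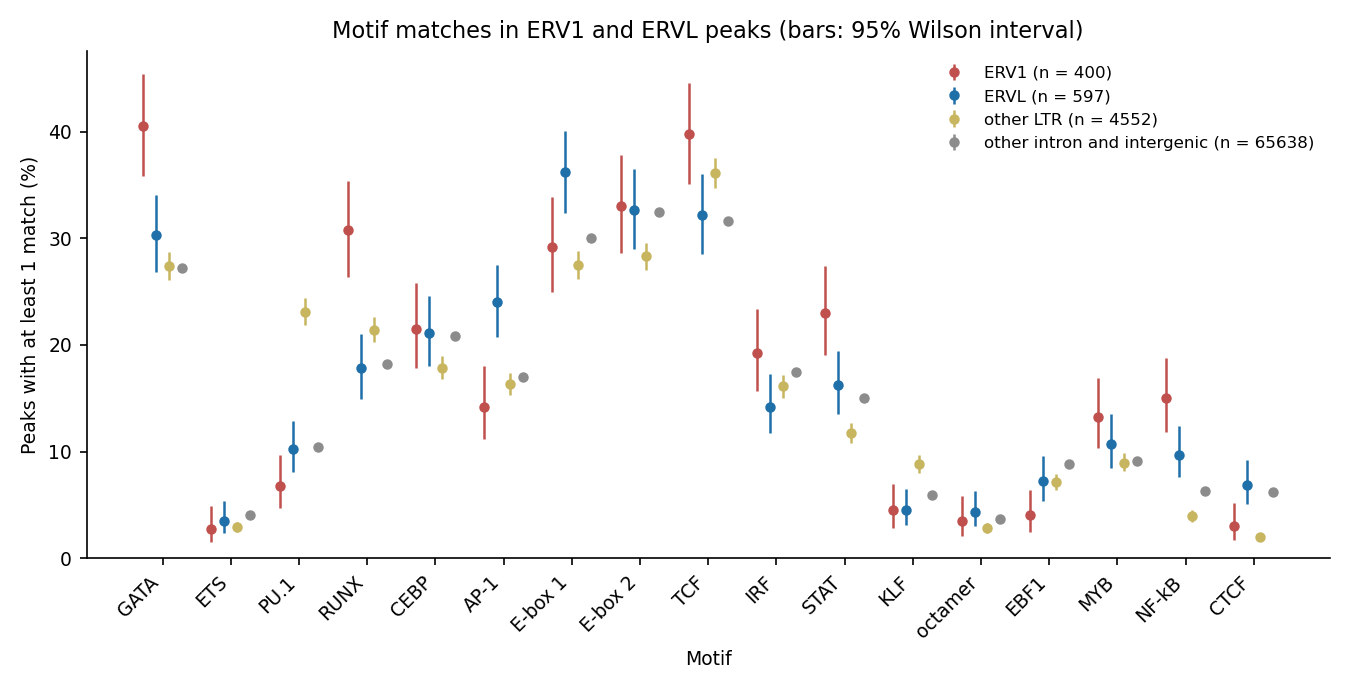
Share of peaks with at least 1 match (y axis, %) for 17 motifs (x axis) in ERV1 (red), ERVL (blue), other LTR (yellow) and other intron and intergenic peaks (grey), with 95% Wilson intervals as bars; E-box 1 is CAGCTG and E-box 2 is CAGGTG. ERV1 stands highest for GATA (40.5%) and RUNX (30.8%), and ERVL for AP-1 (24%) and the first E-box (36.2%).

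In some subfamilies, mostly small ones, a single motif reached most of the peaks. Of 442 pairs of motif and subfamily, over the 26 subfamilies with at least 10 peaks, 29 had the motif in at least 50% of the peaks. The 5 that stood furthest above all listed peaks were RUNX in RLTR30D2_MM (12 of 13 peaks, 92.3%, 66.7 to 98.6), PU.1 in RLTR28 (11 of 13, 84.6%, 57.8 to 95.7), GATA in RLTR14_RN (15 of 17, 88.2%, 65.7 to 96.7), RUNX in RLTR14_RN (13 of 17, 76.5%, 52.7 to 90.4) and GATA in RLTR30D2_MM (10 of 13, 76.9%, 49.7 to 91.8). RLTR14 had RUNX in 25 of 44 peaks (56.8%, 42.2 to 70.3) and NF-kB in 19 (43.2%, 29.7 to 57.8), but GATA in 6 (13.6%, 6.4 to 26.7), below the 24.1% of all peaks. RMER15 had AP-1 in 35 of 79 peaks (44.3%, 33.9 to 55.3) and CAGCTG in 36 (45.6%, 35 to 56.5).

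In the alignments most of these matches shared a position, as in the sequences shown above. RLTR30D2_MM had its RUNX match at a single column in 12 of 12 peaks, its GATA match in 7 of 10 and its CAGGTG match in 7 of 7. RLTR14 had RUNX at a single column in 21 of 25 peaks, STAT in 17 of 17, MYB in 16 of 18, TCF in 19 of 23 and NF-kB in 15 of 19. Its STAT and NF-kB columns began at consensus positions 148 and 153, so these matches overlap and are not separate stretches. RLTR14_RN had RUNX at a single column in 11 of 13 peaks. AP-1 in RMER15 was more scattered, with 14 of 35 peaks at the most frequent column, and CAGCTG with 10 of 36. Only 3.99% of RMER15 pairs aligned over at least 100 bases, against 98.7% in RLTR30D2_MM and 68% in RLTR14. Columns are therefore less comparable in RMER15, and the part of this in the scatter was not tested. The same limit holds for the columns of LTR41, where 1.22% of pairs aligned over at least 100 bases. CTCF matches were in 13 of 41 LTR41 peaks (31.7%, 19.6 to 47), and in 10 of 36 outside the group on chromosome 17 described below (27.8%, 15.8 to 44). The share of CTCF matches in ERVL without LTR41 was 5.04% (3.51 to 7.18). CTCF matches were not particular to LTR41, since LTR41B had them in 7 of 24 peaks (29.2%, 14.9 to 49.2). Those LTR41B peaks are part of the 5.04%.

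**Figure D4:**
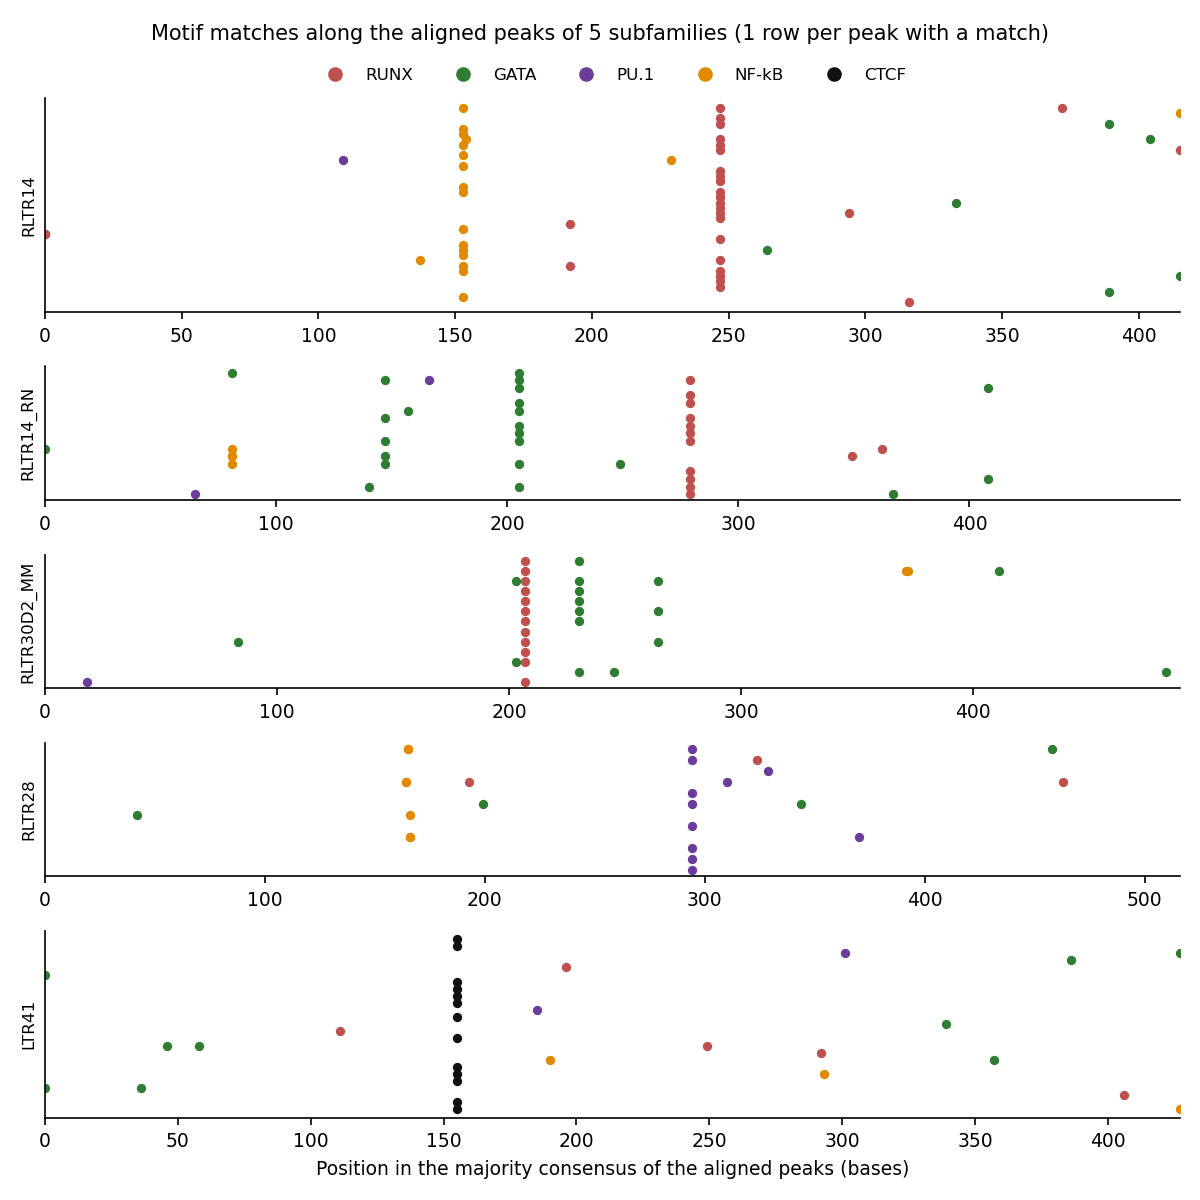
Position of motif matches (x axis, bases of the majority consensus of the aligned peaks) in 5 subfamilies, 1 row per peak with a match, coloured by motif. RUNX matches form a vertical line in RLTR14 (21 peaks), RLTR14_RN (11) and RLTR30D2_MM (12). PU.1 matches do so in RLTR28 (8) and CTCF matches in LTR41 (13), where 1.22% of pairs aligned over at least 100 bases.

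How alike the peaks of a subfamily were varied widely. Of 8461 pairs of peaks within the 26 subfamilies, 1151 (13.6%) aligned over at least 100 bases, and 9 subfamilies had 0 such pairs. Whether such peaks cover different stretches of the element or have diverged was not tested. In RLTR30D2_MM 98.7% of pairs aligned with a median identity of 75.8%, in RLTR28 75.6% of pairs with 75%, in RLTR14 68% with 72.7%, and in RLTR14_RN 58.8% with 70.6%. RMER15 had 3.99% of pairs aligned. MMVL30-int pairs were fewer (27.3%) but closer, with a median identity of 83.9%.

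LTR41 held a group of near copies in the MHC. All 10 aligned pairs of the subfamily were among 5 intergenic peaks on chromosome 17, within 517668 bp, with identities of 82.3 to 91.4%. The nearest genes were H2-M10.1 (17134 bp), H2-M10.3 (12886 bp) and H2-M10.5 (-8447 and 16083 bp), nonclassical MHC class I genes, and Trim26 (-10961 bp), of the tripartite motif family. All stretches of 100 bases in the 5 peaks were unique, and 3 of the 5 held the CTCF match.

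To compare listed copies with those not listed, the majority consensus of the peaks of a subfamily was searched in the genome. The consensus comes from the peaks themselves, so the shares are a description. RLTR14 had 1159 copies that covered at least 60% of the consensus, of which 49 overlapped a listed peak of any annotation (4.23%, 3.21 to 5.55), and RLTR14_RN had 13 of 293 (4.44%, 2.61 to 7.44). RLTR30D2_MM had 13 of 373 (3.49%, 2.05 to 5.87), MLTR14 4 of 118 (3.39%, 1.33 to 8.39) and RMER5 15 of 989 (1.52%, 0.921 to 2.49). In ERVL, RMER15 had 23 of 1196 (1.92%, 1.28 to 2.87) and RLTR28 22 of 1109 (1.98%, 1.31 to 2.99), whereas 0 copies were found with the consensus of LTR41 or of RMER15-int. Copies that overlapped a peak of the same name were 12 in RMER15, which has 79 peaks, 2 in MLTR14 (27 peaks) and 9 in RMER5 (25 peaks). The search missed most listed peaks of these names, so their shares do not describe all copies of the subfamily. In RLTR14 such copies were 33 (44 peaks), in RLTR14_RN 10 (17), in RLTR30D2_MM 11 (13) and in RLTR28 10 (13). RLTR14_RN, RLTR30D2_MM and RLTR28 were added to the 3 largest subfamilies of each family after the data were seen. Copies with a peak had a smaller median distance to a TSS than copies without in 6 of these 7 subfamilies, such as RLTR14 (18196 against 28684 bp) and RLTR28 (12824 against 34066 bp). In RLTR14_RN it was 57088 against 51637 bp, and 34663 against 59458 bp at 80% coverage, and none of these was tested.

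Shares of copies with a peak were then set side by side for copies with and without a motif match. The motifs were picked because the peaks carry them, and many copies with a peak are those same peaks (33 of 49 in RLTR14 have that name), so a higher share was largely given by the choice and the values are only a description. In RLTR14, 21 of 132 copies with a RUNX match overlapped a peak (15.9%, 10.6 to 23.1) and 28 of 1027 without it did (2.73%, 1.89 to 3.91). In RLTR14_RN these were 10 of 57 (17.5%, 9.82 to 29.4) and 3 of 236 (1.27%, 0.433 to 3.67), and in RLTR30D2_MM 12 of 218 (5.5%, 3.18 to 9.37) and 1 of 155 (0.645%, 0.114 to 3.56). RMER5 had 1 of 48 (2.08%, 0.369 to 10.9) and 14 of 941 (1.49%, 0.888 to 2.48), and MLTR14 had 2 of 11 and 2 of 107. These subfamilies are related in part and can share genome copies. NF-kB matches in RLTR14 gave 15 of 103 (14.6%, 9.03 to 22.6) and 34 of 1056 (3.22%, 2.31 to 4.47). TCF and STAT matches, although at shared columns in RLTR14 too, gave 3.77% against 4.69% and 5.18% against 3.55%, with intervals that overlap.

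For GATA the values differed between subfamilies. In RLTR14_RN, 13 of 202 copies with a match overlapped a peak (6.44%, 3.8 to 10.7) and 0 of 91 without it, with a Wilson upper bound of 4.05%. In RLTR30D2_MM these were 4.47% and 1.57%, and in RLTR14 1 of 92 (1.09%) and 48 of 1067 (4.5%). In RLTR28, 14 of 377 copies with a PU.1 match overlapped a peak (3.71%, 2.22 to 6.14) and 8 of 732 without it (1.09%, 0.555 to 2.14). AP-1 in RMER15, which 50% of copies held, gave 2.17% and 1.67%. STAT in RLTR14_RN went the other way, with 1 of 147 copies against 12 of 146. Copies with a RUNX match were also closer to the consensus in RLTR14 (median identity 79.4% against 77.7%) and in RLTR30D2_MM (82.6% against 81.6%). In RLTR30D2_MM 94% of copies with a RUNX match were unique, against 87.7% of those without. The other way round, these were 90.2% against 92.9% in RLTR14 and 94.7% against 97% in RLTR14_RN. The part of identity and uniqueness in the shares was not tested.

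**Figure D5:**
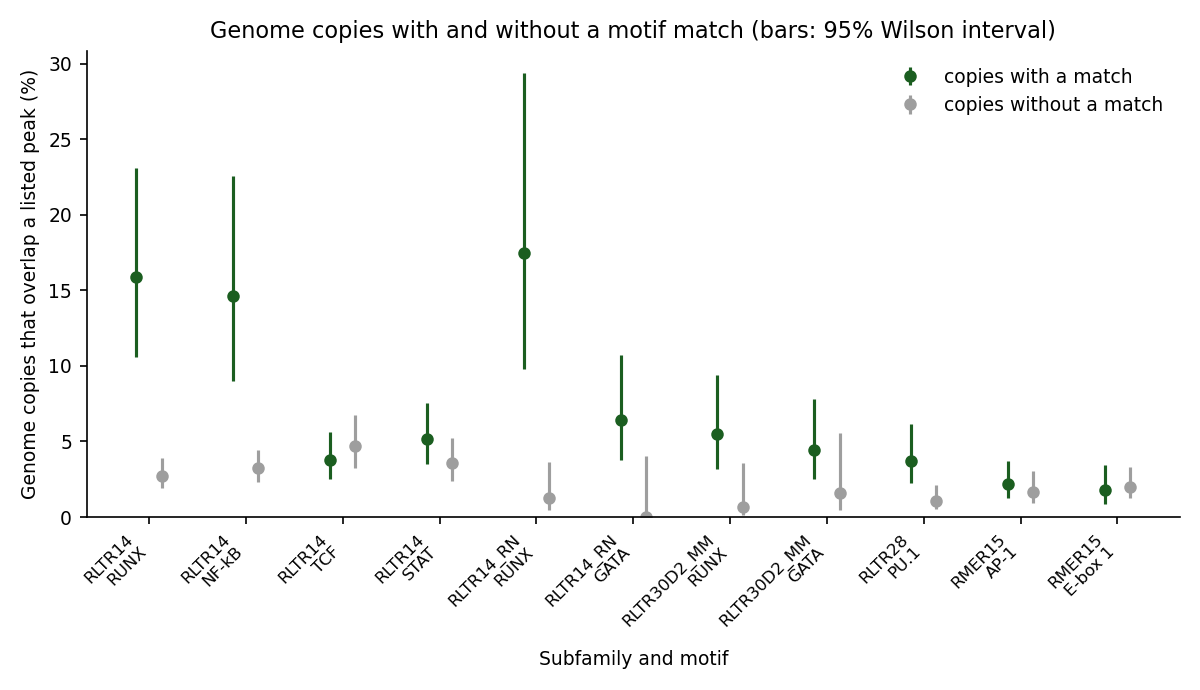
Share of genome copies that overlap a listed peak (y axis, %) for 11 pairs of subfamily and motif (x axis), for copies with (green) and without (grey) a match, with 95% Wilson intervals as bars. The RUNX shares are 15.9% against 2.73% in RLTR14 and 17.5% against 1.27% in RLTR14_RN, while AP-1 and E-box 1 (CAGCTG) in RMER15 overlap.

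The members were spread over many genes. HOMER named 382 genes as nearest promoter of the ERV1 peaks, 18 of them for 2 peaks and 0 for 3, and 568 genes for the ERVL peaks, 25 of them for 2 peaks and 2 for 3. The nearest gene was protein-coding for 84.8% of ERV1 and 84.4% of ERVL peaks. These shares were near the 84% of the other intron and intergenic peaks and the 83% of other LTR peaks. Prex1, a Rac exchange factor of neutrophils, had an RMER15 and 2 RMER15-int peaks in intron 1 of 39, at 48061, 7117 and 5314 bp from the TSS. Tm2d1 had LTR79, LTR67B and MLT2E peaks at 193215, 100609 and 42906 bp. A830029E22Rik had an LTR41B peak at -18907 bp and an RMER15-int peak at -222151 bp, and A930007I19Rik an LTR33 peak at 20665 bp and a MER21C peak at 27384 bp. Cd47, the surface protein that inhibits phagocytosis, had an RMER15 peak at -22844 bp and an ERV3-16A3_LTR peak at -58525 bp.

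Among the ERV1 genes with 2 peaks, 4933430H16Rik had an RLTR1B-int peak at 13610 bp and a MER67A peak at 49331 bp. Acad9, a mitochondrial acyl-CoA dehydrogenase, had an RLTR14 peak at -1247 bp and an RLTR30 peak at -5683 bp. Amn1 had peaks at -4984 and -54850 bp, and Fam3c, a secreted cytokine-like protein, at -50877 and -103545 bp. The 2 Btg3 peaks lay on chromosomes 17 and 16, so that the name stood for separate loci. Ptpn11, chosen after its values were seen, had an RLTR14 peak at 84308 bp and an RLTR30D2_MM peak at 66963 bp, and both had the RUNX match at the shared column of their subfamily.

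The peaks closest to a TSS lay mostly in first introns in ERV1 and upstream in ERVL. In ERV1 these were an RLTR14 peak 826 bp into Gm4311, an RLTR4_Mm peak 963 bp into Apobec3, in intron 2 of 7, an MMVL30-int peak 1028 bp into Rnf180, an LTRIS2 peak 1177 bp into Zfp984 and a MuLV-int peak 1199 bp into Cmah. Apobec3 is a cytidine deaminase that restricts retroviruses, Rnf180 a ubiquitin ligase, Zfp984 a zinc finger gene and Cmah the hydroxylase that makes N-glycolylneuraminic acid. In ERVL they were an LTR67B peak 1031 bp upstream of Xpo7, a nuclear export receptor, RMER15 peaks 1209 bp upstream of Wdfy1 and 1324 bp upstream of Msmb, and an LTR87 peak 1476 bp upstream of Rbm33, together with a MER74C peak 1132 bp into intron 1 of 13 of Rbfox2, a splicing factor.

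Few members had a gene of the blood lists as nearest promoter. Of 235 genes in 7 lists, 5 ERV1 peaks (1.25%) and 6 ERVL peaks (1.01%) were nearest to one, beside 2.02% of the other intron and intergenic peaks. The ERV1 peaks included 3 at B cell genes (0.75%, beside 0.349% of the others). An RLTR14 peak lay at chr4:44728979-44729477, 18788 bp upstream of Pax5. An MMERGLN-int peak lay 25683 bp upstream of Foxo1, a forkhead factor of lymphocytes, and a MER4B-int peak in intron 3 of 7 of Ikzf3, which encodes Aiolos, 30379 bp from the TSS. An RLTR1A2_MM peak was 20809 bp from Csf2ra, the GM-CSF receptor chain, and a MER57E2 peak was 4441 bp upstream of Ddx58, the RNA sensor RIG-I.

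In ERVL 4 of the 6 were at T cell genes (0.67%, beside 0.459% of the others), and all 4 were intergenic. Such counts are too few to set these shares apart. A MER74A peak lay 12071 bp upstream of Thy1, a surface glycoprotein of T cells, an RMER15 peak 35345 bp upstream of the transcription factor Ets1, a MER21C peak 43663 bp upstream of Ctla4, an inhibitory receptor, and an RMER15-int peak 77928 bp upstream of Runx3, a factor of CD8 T cells. An LTR33A peak lay 1644 bp upstream of Cybb, a subunit of the phagocyte NADPH oxidase. The lists of HSC, erythroid and megakaryocyte genes had 0 members of either family by this rule, the T cell list had 0 in ERV1 and the B cell list 0 in ERVL. With the nearest RefSeq Select TSS of a coding gene in place of HOMER's promoter, 10 ERV1 peaks (2.5%) and 10 ERVL peaks (1.68%) were at genes of the lists, beside 2.47% of the others, and the T cell list had 3 ERV1 peaks.

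Few members lay beside another member of their family. Within 10 kb of each other were 18 ERV1 peaks in 9 pairs, 1 pair with a single name, and 28 ERVL peaks in 14 pairs, 6 of them with a single name. The nearest listed peak of any kind was a median of 5971 bp away in ERV1 and 5532 bp in ERVL, beside 4656 bp in the other intron and intergenic peaks. The ERVL pairs of a single name included MERVL_2A-int peaks near Il18bp, which binds interleukin 18, and MT2B peaks near Lbr, the lamin B receptor, and were chosen after their values were seen.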

How the data were processed

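Per the labels and the study's methods, the authors aligned the reads to mm10 with the ENCODE ATAC-seq pipeline, left out multimapping reads, joined the optimal Irreproducible Discovery Rate lists of the cell types, kept non-overlapping peaks with chromVAR and annotated them with HOMER, named with version 4.10.2 in the submitters' processing notes. The deposited start, end and distance to the TSS are in bp and were used as they are, without normalization. The deposited score was 0 in every peak and was not used. The 2 replicates of each cell type were already pooled, so planned values per sample could not be computed, and counts per peak were not analysed here.

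Members, motifs and gene lists were chosen with earlier results of these data known, and no test was run. Sequences came from RefSeq GRCm38.p6 (annotation release 108), the assembly of mm10. Shares have 95% Wilson intervals and differences Newcombe intervals. Peaks of a subfamily were compared by BLAST 2.17.0 and aligned with MAFFT 7.526, and the majority consensus (columns filled in over 50% of peaks) was searched in the genome with a minimum coverage of 60%. Unique stretches were counted with numba 0.67.0, tested on simulated data, and tables were made with pandas 2.3.3. Motifs were searched over whole peaks in both orientations, and matches of different motifs may overlap.

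Named were the 5 largest subfamilies, the genes with most members (ties in order of name), the genes of the 5 members closest to a TSS, list genes nearest to a member, and the 5 pairs of motif and subfamily furthest above all peaks. Peaks of chromosome 18 were counted, and no sequence of them was printed. Some members are not reported here by name. Alternatives were another comparison group, 1 mismatch, the central 200 bp, other window lengths and cut-offs, and, chosen after seeing the data, motif shares without single repeat names.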

Additional observations from a re-analysis of the deposited data

How the results depend on the processing

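Of 103 alternative values for 52 results, 57 stayed close to the original value, 44 moved further and 2 reversed. Against other LTR peaks the intergenic difference was 11.4 points in ERV1 and 3.09 in ERVL, the ERV1 CTCF difference reversed to 1.04 points, and ERVL had 7 higher and 3 lower motifs. With 1 mismatch ERV1 had 5 lower motifs and the ERVL IRF difference reversed to 0.113 points, under the limit given above for short strings. In the central 200 bp, median GC was 47.5% and 48.5%, and ERVL had 0 lower motifs. With 50 bases, fully unique peaks were 70.8% and 88.3%. By the nearest RefSeq Select TSS, 10 peaks of each family were at list genes. Within 5 kb of each other were 10 ERV1 and 12 ERVL peaks. Over 200 aligned bases 6.37% of pairs remained. At 80% of the consensus, copies with a peak were 20% in MLTR14 (1 of 5 copies), 3.96% in RMER5, 0% in RMER15 (a single copy) and 3.24% in RLTR28. The cause was not tested. No paired analysis was possible because the list has no column per sample, and for the same reason no replicate could be left out. Depth was unknown, so an absent peak may be an undetected one.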
